A study of Mus musculus with 12 samples.

Results

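The genes described here are mouse genes of the type I interferon response, the set of antiviral and regulatory genes that cells switch on when interferon alpha or beta binds its receptor. They were chosen by symbol from a list of 46 genes, drawn up with earlier results of these data known. Of these, 44 were present in all 12 libraries, out of 16145 genes present in at least 1 library and 12408 present in all. Mx2 and Cmpk2, the other listed genes, were not analysed here. The 44 genes fall into 28 effectors and 16 sensors and signalling genes. The effectors are 11 genes whose products bind or act on RNA, 6 interferon-inducible GTPases and 11 others, and the remaining 16 are 5 sensors of nucleic acid and 11 genes of signalling and regulation.

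The cells were bone marrow-derived macrophages, grown from mouse marrow in M-CSF for 7 days. Wild-type (WT) cells received vehicle for 12 h, hemin (heme with oxidised iron) at 15 µM for 12 h, or 4-octyl itaconate (4-OI, a cell-permeable ester of itaconate) at 120 µM for 15 h. Cells from Irg1KO mice, which got vehicle for 12 h, are labelled as lacking Irg1, now called Acod1, the itaconate-producing enzyme. Each of the 4 groups has 3 libraries, and no label names an infection, an interferon or another stimulus in any group. The longer exposure to 4-OI cannot be told apart from the agent itself. The labels do not say whether the 3 libraries of a group came from separate mice or cultures, so each p-value measures only the spread between these libraries.

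Interferon alpha and beta signal through the receptor chains Ifnar1 and Ifnar2 and the kinases Jak1 and Tyk2 to a transcription factor complex that holds Stat2 and Irf9. The complex binds a DNA motif called the interferon-stimulated response element (ISRE) in the promoters of many of the genes described here. Unstimulated macrophages are known to keep a low tonic level of this response, and several of its products (Stat2, Irf7, Irf9) are themselves parts of the pathway, which makes it self-amplifying.

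The libraries held 9405112 to 22390882 expected counts, and the 44 genes took 0.357 to 0.381% of them in WT vehicle, 0.349 to 0.380% in Irg1KO, 0.262 to 0.284% with hemin and 0.157 to 0.175% with 4-OI. The 15 macrophage markers (Csf1r, Adgre1 and others) were detected in all 12 libraries, with summed levels of 27582 to 31411 CPM (counts scaled to library size with TMM factors). Single markers went both ways with 4-OI, as given below. Acod1 was at 27.5, 30.5 and 25.0 CPM in WT vehicle and at 21.7, 13.6 and 26.3 CPM in the libraries labelled Irg1KO, so the groups overlapped and the counts of this gene did not separate the labels (log2 fold change -0.48, SE 0.26, adjusted p = 0.194). Which part of Acod1 was deleted is not given in the sources used here, and remaining transcript could still be counted. Differences were tested with the edgeR quasi-likelihood F test over 12148 genes, among which all 44 were tested, and called genes are those with a p under 0.05 after Benjamini-Hochberg adjustment.

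With 4-OI, 43 of the 44 genes were lower than in vehicle-treated WT macrophages and none was higher. The test called 25.0% of all genes tested lower in this comparison. The median log2 fold change was -1.28 over the 44 genes and -0.003 over all genes, and 27 of the 44 were at least 2-fold lower, against 4.31% of all genes. Over all genes the calls were 3043 lower and 3083 higher; on deposited FPKM (limma on log2(FPKM + 1)) they were 4608 and 1743, with an all-gene median of -0.11, and the 44 genes then had a median of -1.26 with all 44 called lower. Summed over the 44 genes, the level was 3627, 3457 and 3599 CPM with vehicle and 1718, 1842 and 1666 CPM with 4-OI. Hemin gave a smaller fall, to 2755, 2628 and 2861 CPM, and the Irg1KO libraries, at 3422, 3654 and 3755 CPM, overlapped the WT vehicle libraries. Of the 50 genes with the lowest log2 fold changes with 4-OI among all tested, 10 belonged to these 44, as did 25 of the lowest 500. Because the RNA comes from bulk cultures, fewer cells of a type and less RNA per cell cannot be told apart.

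**Figure D1:**
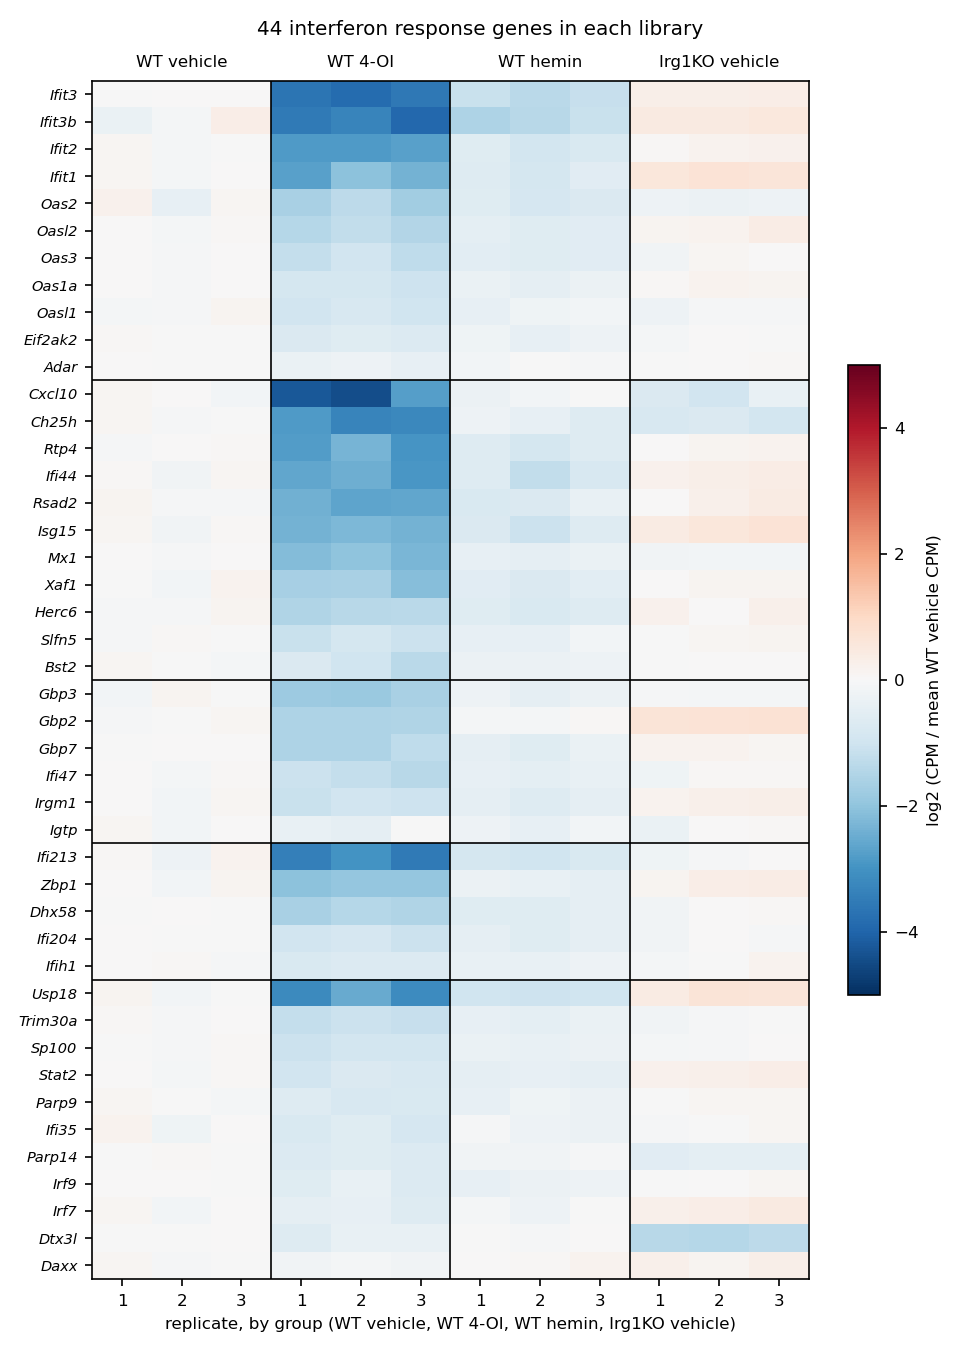
Each row is a gene and each column a library, grouped by role from top to bottom (RNA-directed effectors, other effectors, GTPases, sensors, signalling and regulation); colour gives log2 of the CPM over the mean of the 3 WT vehicle libraries. The 3 columns of 4-OI are blue in nearly every row, hemin is pale blue, and the Irg1KO columns hold both red and blue rows, with Dtx3l the deepest blue.

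The fall with 4-OI reached every role and was smallest at the median for the signalling and regulatory genes. All 28 effectors were called lower with 4-OI, 22 of them at least 2-fold, with a median log2 fold change of -1.53. Of the 16 sensors and signalling genes, 15 were called lower, 5 of them at least 2-fold, with a median of -0.78. Within these classes the medians were -2.31 for the 11 other effectors, -1.51 for the 5 sensors, -1.36 for the 11 RNA-directed effectors, -1.33 for the 6 GTPases and -0.73 for the 11 signalling and regulatory genes. The difference between roles is a description of these genes and was not tested.

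Among the RNA-directed effectors, the Ifit genes, whose products bind viral RNA and block its translation, changed most. Ifit3 was at 45.7, 47.2 and 47.9 CPM with vehicle and at 3.73, 3.26 and 3.91 CPM with 4-OI. With hemin it was at 21.4, 18.6 and 21.3 CPM, and in Irg1KO at 57.3, 58.0 and 59.3 CPM. The 4 groups did not overlap for this gene: 4-OI was lowest, then hemin, then WT vehicle, then Irg1KO. Its log2 fold change against WT vehicle was -3.70 (SE 0.10, adjusted p = 3.53e-27) with 4-OI, -1.20 (SE 0.07, adjusted p = 2.54e-15) with hemin and 0.31 (SE 0.06, adjusted p = 0.000117) in Irg1KO. Ifit3b, a near copy of Ifit3, was at 5.97, 7.02 and 9.45 CPM with vehicle and 0.647, 0.764 and 0.492 CPM with 4-OI. It was at 2.54, 2.84 and 3.43 CPM with hemin and 10.3, 10.1 and 10.9 CPM in Irg1KO, the same order of groups. The split of reads between these near copies is uncertain, since their counts were fractional in all 12 libraries. The sum of both was a whole number in every library (to within 0.011) and does not depend on that split. This sum averaged 54.4 ± 2.85 CPM (SD, n = 3) with vehicle, 4.27 ± 0.21 with 4-OI, 23.4 ± 1.71 with hemin and 68.7 ± 1.36 in Irg1KO.

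Ifit2 and Ifit1 lie in the same gene cluster and gave the same order for 4-OI and hemin. Ifit2 was at 81.7, 71.5 and 74.6 CPM with vehicle, 10.7, 10.5 and 11.6 CPM with 4-OI and 49.95, 39.7 and 45.0 CPM with hemin. In Irg1KO it was at 78.0, 86.4 and 88.8 CPM, overlapping WT vehicle (log2 fold change 0.15, SE 0.07, adjusted p = 0.0601). Ifit1 was at 19.4, 17.1 and 18.5 CPM with vehicle, 2.76, 4.36 and 3.54 CPM with 4-OI, 11.8, 9.96 and 12.2 CPM with hemin and 27.4, 29.4 and 27.9 CPM in Irg1KO. Unlike Ifit2, Ifit1 did not overlap between Irg1KO and WT vehicle and was higher there by 0.63 on the log2 scale (SE 0.09, adjusted p = 3.77e-07). With 4-OI the log2 fold changes were -2.80 for Ifit2 (SE 0.09, adjusted p = 2.38e-24) and -2.34 for Ifit1 (SE 0.13, adjusted p = 1.43e-17). In the order of tested genes along chromosome 19, Ch25h and Lipa come just before Ifit2, Ifit3, Ifit1bl1, Ifit3b and Ifit1. Lipa, which encodes a lysosomal lipase and is not an interferon response gene of the list, rose with 4-OI by 1.34 (adjusted p = 2.56e-23) between neighbours that fell by 2.80 to 3.10 on the log2 scale.

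The other RNA-directed effectors moved less. The Oas and Oasl genes include the synthetases that make 2'-5' oligoadenylates on double-stranded RNA, and Eif2ak2 (PKR) and Adar encode a kinase and an editing enzyme that act on such RNA. Their log2 fold changes with 4-OI ran from -1.52 for Oas2 (SE 0.18, adjusted p = 8.63e-05) and -1.36 for Oasl2 (SE 0.06) through -1.12 for Oas3, -0.93 for Oas1a, -0.90 for Oasl1 and -0.68 for Eif2ak2 to -0.33 for Adar (SE 0.05, adjusted p = 1.08e-06). All 7 genes were free of overlap between vehicle and 4-OI. With 3 libraries a group this says little, since it also held for Daxx, which was not called. Oas2 was the least even with vehicle, at 92.0, 59.0 and 84.4 CPM, and without the library at 59.0 CPM it was called lower in Irg1KO (log2 fold change -0.45, adjusted p = 1.09e-05), where the full fit gave -0.26 (SE 0.16, adjusted p = 0.242). Oas1a was the most abundant RNA-directed effector per length with vehicle, at 62.9 ± 2.56 FPKM (SD, n = 3); its counts were fractional in all 12 libraries, so its reads are partly shared with other genes.

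Promoters show what these genes share beyond their levels. RefSeq promoter windows (build GRCm38.p6, 250 bases before to 50 bases after each start) were found for 35 of the 44 genes. The 9 without a window were Oas2, Mx1, Rtp4, Dhx58, Zbp1, Ifi204, Usp18, Parp9 and Parp14. The motif shares and medians below leave them out, with some of the larger falls with 4-OI (Usp18 -2.87, Rtp4 -2.64) among them. The ISRE core GAAANNGAA, read on either strand, was in a window of 22 of these 35 genes (62.9%) and of 8.79% of the 9697 tested genes with a window. The stricter form GAAACNGAA, a subset of the first, was in 13 of 35 (37.1%) against 2.19%. The gamma-activated sequence TTCNNNGAA, the palindromic motif of STAT dimers, was in 8 of 35 (22.9%) against 8.28%. By role the ISRE core was in 7 of 10 RNA-directed effectors, 6 of 9 other effectors, 5 of 6 GTPases, 2 of 2 sensors and 2 of 8 signalling and regulatory genes. The 22 genes with the core had a median log2 fold change of -1.30 with 4-OI (range -3.74 to -0.29), and the 13 without it -0.96 (range -3.10 to -0.16), so the ranges overlapped almost fully.

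The 200 bases before the start are printed for 6 genes, 5′ to 3′ on the strand of the gene, with ISRE cores in capitals. Ifit3 (chr19:34583329-34583528, plus strand), Ifit3b (chr19:34607757-34607956, plus strand) and Ifit1 (chr19:34640689-34640888, plus strand) lie in 1 gene cluster, and each holds 3 cores read from the opposite strand. Ifit2 of the same cluster, which fell further than Ifit1, has no core in either of its windows. Isg15 (chr4:156200819-156201018, minus strand) has 3 overlapping cores between -78 and -58 from the start. Igtp (chr11:58199356-58199555, plus strand) has a core at -34 to -26 and had the smallest called change with 4-OI, -0.29. Ch25h (chr19:34475149-34475348, minus strand) has no core in this window and fell by 3.10. These genes are single examples. Over the 35 genes with a window the median fall was larger with the core (-1.30) than without it (-0.96). A link between the core and the fall was not tested.
Ifit3: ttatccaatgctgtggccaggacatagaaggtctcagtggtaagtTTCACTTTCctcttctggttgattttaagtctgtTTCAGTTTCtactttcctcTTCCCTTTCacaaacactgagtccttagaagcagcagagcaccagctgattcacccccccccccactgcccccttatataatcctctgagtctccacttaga
Ifit3b: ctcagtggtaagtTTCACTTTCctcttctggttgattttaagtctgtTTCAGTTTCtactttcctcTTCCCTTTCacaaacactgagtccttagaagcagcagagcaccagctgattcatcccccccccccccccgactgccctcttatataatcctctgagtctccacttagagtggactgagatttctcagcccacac
Ifit1: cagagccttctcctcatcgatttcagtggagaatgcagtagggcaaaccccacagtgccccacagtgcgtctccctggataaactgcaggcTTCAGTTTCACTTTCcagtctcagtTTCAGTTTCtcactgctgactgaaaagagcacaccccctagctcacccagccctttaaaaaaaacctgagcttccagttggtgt
Isg15: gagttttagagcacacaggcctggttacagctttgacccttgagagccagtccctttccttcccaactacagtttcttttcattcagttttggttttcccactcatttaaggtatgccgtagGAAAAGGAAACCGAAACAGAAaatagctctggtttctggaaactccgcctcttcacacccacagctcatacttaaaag
Igtp: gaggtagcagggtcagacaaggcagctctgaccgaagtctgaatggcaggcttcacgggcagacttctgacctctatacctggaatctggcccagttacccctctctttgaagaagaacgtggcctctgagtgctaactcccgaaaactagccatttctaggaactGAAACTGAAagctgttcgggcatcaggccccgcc
Ch25h: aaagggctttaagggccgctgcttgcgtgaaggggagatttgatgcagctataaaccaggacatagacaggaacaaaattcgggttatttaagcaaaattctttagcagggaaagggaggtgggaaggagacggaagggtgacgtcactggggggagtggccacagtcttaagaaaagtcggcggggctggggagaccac
The 3 cores of Ifit3 and Ifit3b carry the same letters, at -155, -121 and -102 in Ifit3 and at -187, -153 and -134 in Ifit3b (position of the first base). A match to these letters is a description of the sequence and does not show that a factor binds there.

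Among the other effectors, Cxcl10 and Ch25h had the deepest falls with 4-OI. Cxcl10, a chemokine that attracts T cells, was at 4.71, 4.45 and 4.02 CPM with vehicle and 0.230, 0.201 and 0.644 CPM with 4-OI (log2 fold change -3.74, SE 0.32, adjusted p = 1.15e-12). It was a rare transcript, with as few as 3 expected counts in a 4-OI library. With hemin it was at 3.61, 3.98 and 4.32 CPM, overlapping vehicle, and in Irg1KO at 2.68, 2.27 and 3.40 CPM, below every WT vehicle library. Ch25h, the enzyme that makes 25-hydroxycholesterol, was at 70.6, 64.5 and 65.1 CPM with vehicle and 9.36, 6.71 and 7.19 CPM with 4-OI (log2 fold change -3.10, SE 0.11, adjusted p = 2.45e-19). It was at 56.7, 50.02 and 43.0 CPM with hemin and 37.9, 40.6 and 35.5 CPM in Irg1KO, so all 3 groups lay below WT vehicle.

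Rtp4, a chaperone-like protein that restrains some viruses, was at 84.6, 89.1 and 90.9 CPM with vehicle and 12.6, 17.4 and 11.4 CPM with 4-OI (log2 fold change -2.64, SE 0.10, adjusted p = 1.01e-15). Hemin libraries held 57.1, 48.1 and 57.2 CPM of it and Irg1KO libraries 90.6, 98.2 and 99.3 CPM. Ifi44 was at 29.9, 25.5 and 30.1 CPM with vehicle and 4.76, 5.30 and 3.76 CPM with 4-OI (log2 fold change -2.58, SE 0.13, adjusted p = 5.36e-17). With hemin Ifi44 was at 18.2, 12.2 and 16.3 CPM and in Irg1KO at 33.3, 34.6 and 36.7 CPM. Both genes put hemin between 4-OI and vehicle in every library. Isg15, the ubiquitin-like modifier released and conjugated during the response, was at 27.0, 22.4 and 25.9 CPM with vehicle, 4.83, 5.24 and 4.94 CPM with 4-OI, 15.1, 11.9 and 16.1 CPM with hemin and 32.9, 37.5 and 40.6 CPM in Irg1KO. For Isg15 no library of any group overlapped another group.

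The remaining other effectors were Rsad2 (viperin, which makes a chain-terminating nucleotide), Mx1 (a GTPase that blocks viral nucleocapsids), Xaf1, Herc6, Slfn5 and Bst2 (tetherin, which holds budding virions at the membrane). Rsad2 was at 33.1, 28.7 and 28.7 CPM with vehicle, 5.68, 4.90 and 4.94 CPM with 4-OI, 17.7, 18.2 and 23.3 CPM with hemin and 30.8, 36.3 and 39.7 CPM in Irg1KO, where it overlapped vehicle. These genes fell with 4-OI by 2.54 for Rsad2, 2.13 for Mx1, 1.73 for Xaf1, 1.40 for Herc6, 1.00 for Slfn5 and 0.99 for Bst2 on the log2 scale. The counts of Slfn5 were fractional in 10 of the 12 libraries. Bst2 was the most abundant of all 44 genes per length, at 292 ± 17.6 FPKM with vehicle. At 117, 98.2 and 76.8 CPM with 4-OI against 209, 191 and 183 CPM with vehicle, it remained the most abundant after treatment, at 133 FPKM. The order of the others changed more: Rtp4, the fourth with vehicle at 87.0 FPKM, went to 12.4 FPKM, below Oas1a at 29.4 FPKM, which had started at 62.9 FPKM.

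The 6 GTPases, guanylate-binding proteins and immunity-related GTPases that act on vacuoles holding pathogens, respond to interferon gamma as well as to type I interferon. Gbp3 was at 20.7, 24.9 and 22.3 CPM with vehicle and 6.52, 6.24 and 7.30 CPM with 4-OI, lower by log2 fold change -1.78 (SE 0.11, adjusted p = 9.74e-17). Hemin libraries held 19.1, 16.7 and 18.7 CPM, below vehicle, and Irg1KO libraries 21.9, 21.2 and 21.1 CPM, within its range. Gbp2 was at 20.8, 21.1 and 22.9 CPM with vehicle, 7.36, 7.32 and 7.62 CPM with 4-OI and 33.6, 34.5 and 35.6 CPM in Irg1KO. With hemin Gbp2 was at 20.0, 20.3 and 22.2 CPM, overlapping vehicle, so the 2 treatments differed for it: the test of 4-OI against hemin gave -1.50 (SE 0.10, adjusted p = 6.34e-15). Gbp7 was at 26.5, 27.5 and 27.3 CPM with vehicle, 9.36, 9.20 and 11.3 CPM with 4-OI, 19.8, 17.7 and 21.4 CPM with hemin and 30.5, 31.0 and 29.1 CPM in Irg1KO.

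Ifi47 was at 47.7, 44.4 and 49.5 CPM with vehicle, 22.2, 20.7 and 17.9 CPM with 4-OI, 36.0, 33.3 and 36.2 CPM with hemin and 41.2, 48.8 and 48.6 CPM in Irg1KO. Its fall with 4-OI was 1.20 on the log2 scale, and that of Gbp7 1.46. Irgm1, a regulator of the other GTPases of its family and the most abundant GTPase here per length at 38.9 FPKM with vehicle, fell by 1.01 (SE 0.07, adjusted p = 1.69e-15). Igtp, from the same family, moved least: at 26.5, 22.3 and 25.2 CPM with vehicle and 18.9, 18.1 and 24.0 CPM with 4-OI, its groups overlapped, and its change of -0.29 (log2, SE 0.11, adjusted p = 0.0285) was the smallest among the 43 called genes.

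All 5 sensors fell with 4-OI. Ifi213, of the family of nuclear DNA-binding proteins that includes Ifi204, was at 24.8, 20.1 and 26.7 CPM with vehicle and 2.22, 3.02 and 2.04 CPM with 4-OI (log2 fold change -3.23, SE 0.15, adjusted p = 4.43e-20). It was at 13.0, 12.0 and 14.0 CPM with hemin and 20.6, 23.1 and 23.9 CPM in Irg1KO. Zbp1, the sensor of left-handed nucleic acid that can start necroptosis, was at 25.5, 22.7 and 27.5 CPM with vehicle, 6.06, 6.65 and 6.65 CPM with 4-OI, 20.6, 19.8 and 18.7 CPM with hemin and 28.1, 31.7 and 32.7 CPM in Irg1KO. Zbp1 was the sensor with all 4 groups apart. Dhx58 (LGP2, a regulator of the RNA helicase sensors) was at 54.9, 55.9 and 54.0 CPM with vehicle, 17.9, 20.6 and 19.4 CPM with 4-OI, 35.7, 36.4 and 40.2 CPM with hemin and 49.2, 55.3 and 56.9 CPM in Irg1KO. Ifi204 was at 207, 203 and 202 CPM with vehicle, 104, 114 and 98.0 CPM with 4-OI, 149, 135 and 150 CPM with hemin and 180, 207 and 198 CPM in Irg1KO. Ifi204 was the most abundant sensor per length, at 95.5 FPKM with vehicle, and its counts were fractional in all 12 libraries. With 4-OI the log2 fold changes were -1.95 for Zbp1, -1.51 for Dhx58, -0.95 for Ifi204 and -0.71 for Ifih1 (MDA5, the sensor of long double-stranded RNA), with SE from 0.06 to 0.11.

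Among signalling and regulatory genes, Usp18, the protease that removes Isg15 from proteins and dampens the interferon receptor, had the largest fall. It was at 19.4, 16.5 and 17.8 CPM with vehicle and 1.99, 3.09 and 2.04 CPM with 4-OI (log2 fold change -2.87, SE 0.15, adjusted p = 6.10e-19). Hemin brought it to 9.01, 8.63 and 9.00 CPM, and Irg1KO libraries held 23.6, 27.9 and 26.9 CPM, with no overlap between any groups. Trim30a was next, at 202, 189 and 196 CPM with vehicle, 86.7, 91.8 and 88.8 CPM with 4-OI, 149, 139 and 154 CPM with hemin and 172, 188 and 194 CPM in Irg1KO; its reads were fractional in all 12 libraries. Sp100, a nuclear body protein, was at 149, 147 and 159 CPM with vehicle, 72.9, 80.6 and 79.6 CPM with 4-OI, 120, 116 and 125 CPM with hemin and 140, 147 and 154 CPM in Irg1KO. Its counts were fractional in 9 of the 12 libraries. For Trim30a and Sp100 the Irg1KO libraries overlapped WT vehicle, and both treatments lay below it.

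The transcription factors among the 44 genes, Stat2, Irf9 and Irf7, had smaller fold changes with 4-OI than the median gene of each effector role; that difference was not tested. Stat2 was at 106, 99.6 and 111 CPM with vehicle, 54.2, 63.5 and 60.6 CPM with 4-OI, 77.3, 78.8 and 77.6 CPM with hemin and 121, 125 and 131 CPM in Irg1KO. With 4-OI the log2 fold changes were -0.82 for Stat2 (SE 0.06), -0.55 for Irf9 (SE 0.07) and -0.49 for Irf7 (SE 0.08), the factor that drives the interferon alpha genes and the most abundant gene of this role at 110 FPKM with vehicle. Parp9, Ifi35, Parp14 and Dtx3l, regulators of the response, fell by 0.74, 0.72, 0.66 and 0.46 with 4-OI on the log2 scale. Daxx was the exception among all 44 genes: at 37.4, 33.9 and 34.7 CPM with vehicle and 31.0, 32.8 and 31.1 CPM with 4-OI, its change of -0.16 (log2, SE 0.07, adjusted p = 0.0695) was not called.

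**Figure D2:**
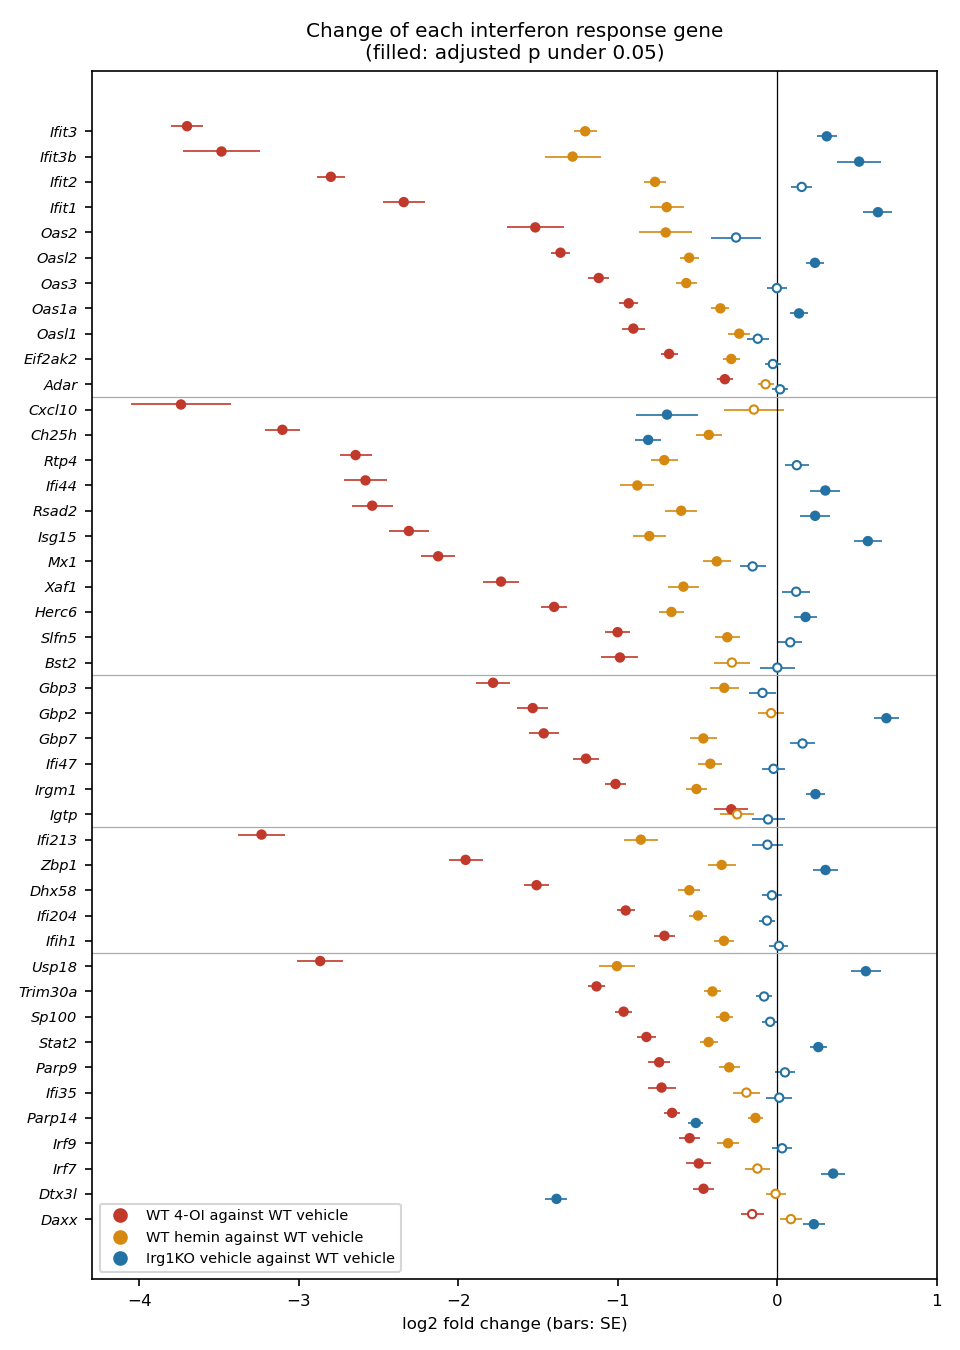
Log2 fold change against WT vehicle (x axis, bars SE) for each gene, by role and then by the change with 4-OI; filled points have an adjusted p under 0.05. Red points (4-OI) reach -3.74, orange points (hemin) lie between them and 0 for almost all genes, and blue points (Irg1KO) lie on both sides of 0, with Dtx3l at -1.38.

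Hemin lowered 35 of the 44 genes and raised none, while 7.74% of all genes tested were called lower and 9.48% higher. Over all genes 940 were lower and 1152 higher, and on log2(FPKM + 1) 1422 and 621, with 36 of the 44 lower and none higher. The median log2 fold change was -0.41 over the 44 genes, -0.48 over the 28 effectors (23 called) and -0.33 over the 16 sensors and signalling genes (12 called). The 3 largest falls were those of Ifit3b (-1.28, SE 0.18, adjusted p = 7.14e-07), Ifit3 (-1.20) and Usp18 (-1.005, SE 0.11, adjusted p = 1.45e-08), and these 3 of the 44 (6.82%) were at least 2-fold lower, against 0.37% of all genes tested. The 9 genes not called with hemin were Adar (-0.07), Bst2 (-0.28), Cxcl10 (-0.15), Gbp2 (-0.04), Igtp (-0.25), Irf7 (-0.12), Ifi35 (-0.19), Dtx3l (-0.01) and Daxx (0.09). Hemin and 4-OI were each compared with the same 3 vehicle libraries, so their falls are not independent of each other.

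Set against each other, 4-OI was lower than hemin for 43 of the 44 genes, all but Igtp (-0.04, SE 0.12, adjusted p = 0.824), against 21.7% of all genes tested. Over all genes 2636 were lower and 2500 higher in that test, and on log2(FPKM + 1) 3490 and 1726, with 43 of the 44 lower. The median log2 difference of 4-OI against hemin was -0.76 over the 44 genes and -1.70 over the 11 other effectors. The difference was largest for Cxcl10 (-3.59, SE 0.33, adjusted p = 2.10e-11), Ch25h (-2.67, SE 0.11, adjusted p = 4.69e-17) and Ifit3 (-2.50, SE 0.12, adjusted p = 1.08e-19). It was smallest among called genes for Irf9 and Daxx (-0.24 each) and Adar (-0.25). Doses and hours of the 2 treatments differ, so these are differences between the groups as treated. Both treatments also moved the targets of the oxidative stress factor NRF2. All 11 detected were called higher in each, against 25.4% of all genes tested with 4-OI and 9.48% with hemin. They summed to 5063 to 5460 CPM with vehicle, 30484 to 30915 CPM with 4-OI and 15071 to 17315 CPM with hemin. In Irg1KO 7 of the 11 were called higher (63.6%, against 23.5% of all genes tested) and 1 lower, with a sum of 5505 to 6052 CPM. The part of these targets in the interferon genes was not tested.

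In the libraries labelled Irg1KO the response genes were called in both directions. Of the 44, 16 were higher than in WT vehicle (36.4%, against 23.5% of all genes tested), 4 were lower (9.09%, against 16.3%) and 24 were not called. The count of 16 rests in part on replicate 2 of WT vehicle, in which the 44 genes summed to 3457 CPM, the lowest of the 3 vehicle libraries; without it 10 were called (22.7%), near the 21.8% of all genes called higher in that fit. The 10 genes called higher under every alternative were Ifit1, Ifit3, Ifit3b, Oasl2, Isg15, Gbp2, Irgm1, Stat2, Irf7 and Usp18. The largest rises were those of Gbp2 (0.69, SE 0.08, adjusted p = 1.34e-09), Ifit1 (0.63) and Isg15 (0.57, SE 0.09, adjusted p = 2.60e-06), all under 2-fold. Usp18 (0.56, SE 0.09, adjusted p = 6.41e-06), Irf7 (0.35), Stat2 (0.26), Irgm1 (0.24) and Oasl2 (0.24) rose as well. Oas1a (0.14), Herc6 (0.18), Rsad2 (0.24), Ifi44 (0.30), Zbp1 (0.30) and Daxx (0.23) were called with all 12 libraries and not without replicate 2 of WT vehicle.

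The 24 genes not called in Irg1KO ranged from -0.26 (Oas2) to 0.16 (Gbp7). They include Mx1 (-0.15), Rtp4 (0.12), Oas3 (0.00), Eif2ak2 (-0.03), Bst2 (0.00), Dhx58 (-0.03), Ifih1 (0.01) and Irf9 (0.03), so within the Oas, GTPase and sensor groups called and uncalled genes stood side by side. The fit calls 13 of the 44 genes (29.5%) lower with 4-OI, lower with hemin and higher in Irg1KO, against 0.93% of all genes tested. Without replicate 2 of WT vehicle 8 of the 13 kept this pattern (18.2% of the 44, against 0.675% of all genes), and Oas1a, Herc6, Rsad2, Ifi44 and Zbp1 lost it. All 3 comparisons share the WT vehicle libraries, so a low or high vehicle value would move them together. Markers of fibroblasts and stroma also differed in these libraries: 9 of 9 tested were higher in Irg1KO, and the 11 detected summed to 10866 to 12163 CPM against 1774 to 2187 CPM in WT vehicle, with Dcn and Lum at 9 expected counts or fewer in every library. Their part in the rise of the interferon genes was not tested.

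The 4 genes lower in Irg1KO were Dtx3l (-1.38, SE 0.07, adjusted p = 5.16e-19), Ch25h (-0.81, SE 0.08, adjusted p = 3.86e-09), Cxcl10 (-0.69, SE 0.19, adjusted p = 0.00403) and Parp14 (-0.51, SE 0.05, adjusted p = 2.11e-11). Cxcl10 was not called with limma on log2(FPKM + 0.1), while the other 3 were called lower under every alternative. Dtx3l, a ubiquitin ligase that works in a complex with Parp9, was at 63.7, 63.9 and 64.9 CPM in WT vehicle, 41.1, 49.2 and 49.6 CPM with 4-OI, 63.1, 62.1 and 65.8 CPM with hemin and 24.4, 23.8 and 25.6 CPM in Irg1KO. It had the deepest fall of the 44 genes in Irg1KO, while its log2 fold change was -0.46 with 4-OI and -0.01 with hemin. In the reference order of genes it lies between Parp14 and Parp9, the partner with which it forms that complex. Parp9 was at 62.5, 58.8 and 55.5 CPM in WT vehicle and 58.2, 62.7 and 62.3 CPM in Irg1KO (log2 fold change 0.05, SE 0.06, adjusted p = 0.569). Parp14, an ADP-ribosyl transferase, was at 245, 258 and 248 CPM in WT vehicle and 170, 178 and 179 CPM in Irg1KO, so 2 of these 3 neighbours fell without overlap and Parp9 overlapped. Of the next tested genes on either side, Kpna1, beside Parp9, was also called lower in Irg1KO (-0.25, adjusted p = 7.54e-05). Hspbap1, beside Parp14, was not called (0.44, adjusted p = 0.0513).

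**Figure D3:**
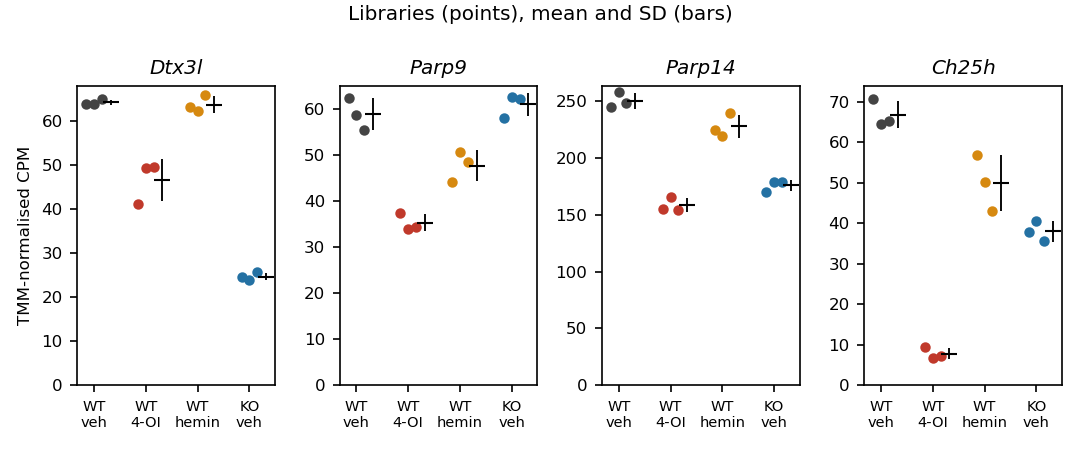
CPM of Dtx3l, its neighbours Parp9 and Parp14, and Ch25h in each library (points), with mean and SD (bars) per group; each y axis starts at 0. In Irg1KO, Dtx3l lies near 24.6 CPM against 64.2 CPM in WT vehicle while Parp9 overlaps, and Ch25h is below WT vehicle in all 3 other groups.

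The other genes of the pathway were read from lists outside the 44. Of 14 interferon and receptor genes, 5 receptor chains were analysed, and the interferon genes, Ifnb1 among them, were not analysed here. Ifnar1 was at 224, 248 and 232 CPM with vehicle, 195, 202 and 211 CPM with 4-OI, 265, 267 and 262 CPM with hemin and 191, 186 and 200 CPM in Irg1KO. Its log2 fold changes were small, at -0.21 with 4-OI (SE 0.05, adjusted p = 0.000383), 0.17 with hemin and -0.29 in Irg1KO, all called. Ifnar2 was not called with 4-OI (-0.09, SE 0.05) or hemin (0.03) and fell by 0.12 in Irg1KO. With 4-OI, 2 of the 5 receptor genes were lower (Ifnar1 and Il10rb) and 1 higher (Ifngr1, 0.25). These shares were 40.0% lower and 20.0% higher, against 25.0% and 25.4% of all genes tested.

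Of the 12 receptor kinases, STATs and brakes compared, a list that also holds Usp18, 2 were lower (Usp18 and the phosphatase Ptpn6) and 4 higher with 4-OI. That is 16.7% lower and 33.3% higher, against 25.0% and 25.4% of all genes tested, with a median log2 fold change of 0.008. Ptpn1, a phosphatase that acts on Jak2 and Tyk2, was higher at 573, 550 and 560 CPM against 179, 193 and 185 CPM (log2 fold change 1.59, SE 0.05, adjusted p = 9.23e-26), and Socs3 (0.98), Stat3 (0.52) and Jak2 (0.26) were higher too. Jak1 (0.00) and Tyk2 (0.12) were not called with 4-OI. Socs3, an inhibitor of cytokine receptors, was also higher in Irg1KO, by 1.80 on the log2 scale.

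Of 18 upstream sensors, adaptors and kinases outside the 44, 7 were lower with 4-OI (38.9%, against 25.0% of all genes tested) and 2 higher (11.1%, against 25.4%), with a median log2 fold change of -0.01. Ikbke, a kinase that activates Irf3 and Irf7, was at 88.6, 99.4 and 84.7 CPM with vehicle and 51.6, 54.6 and 51.6 CPM with 4-OI (-0.79, SE 0.06), but at 123, 124 and 139 CPM with hemin (0.50, SE 0.06), and the test of 4-OI against hemin gave -1.29 (adjusted p = 8.95e-19). Ticam2 (-0.79), Tlr3 (-0.67), Cgas (-0.42) and Tlr7 (-0.22) were lower with 4-OI, and Tlr8 was higher (0.36). Tbk1 (-0.01) was not called with 4-OI. Irf3, the factor that starts interferon beta transcription, was not called in any comparison, with values of 27.1 to 31.7 CPM over all 12 libraries. Other factors of its family went in different directions with 4-OI: Irf8 (0.99), Irf2 (0.51) and Irf5 (0.24) were higher, and Irf1 (-0.50) and the rare Irf4 (-1.97) lower. Irf8 was higher with hemin as well, by 0.70.

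**Figure D4:**
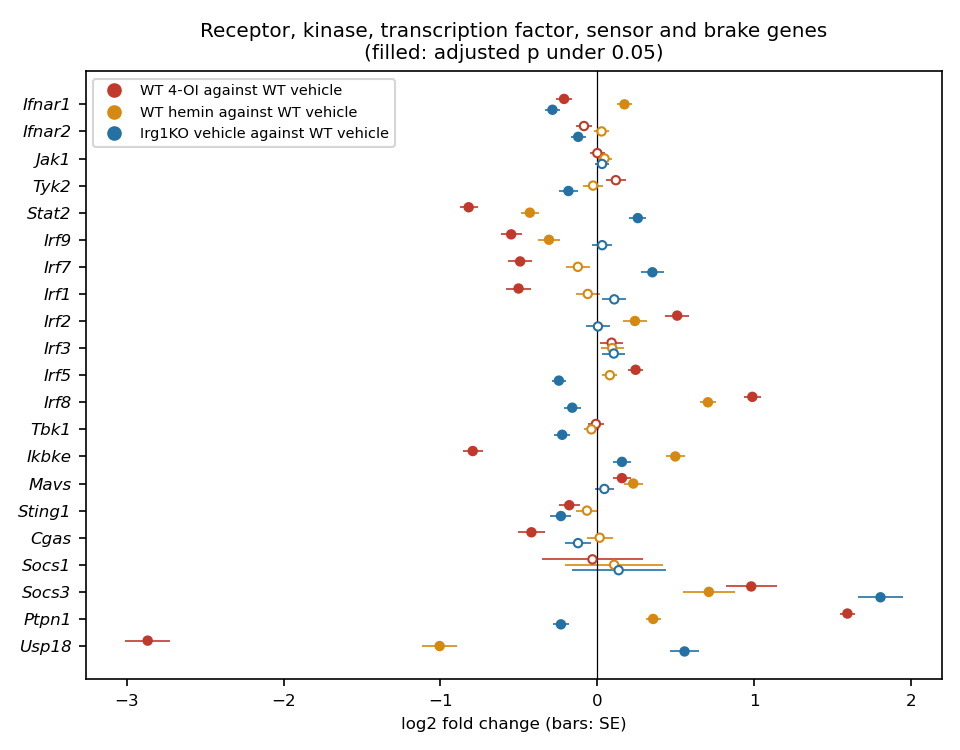
Log2 fold change against WT vehicle (x axis, bars SE) of receptor, kinase, transcription factor, sensor and brake genes; filled points have an adjusted p under 0.05. With 4-OI (red), Usp18 at -2.87 is far left and Ptpn1 at 1.59 is far right, while Jak1, Tyk2, Irf3 and Tbk1 are open points near 0.

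A wider list of 88 other interferon-induced genes was read in the same way. It was chosen with earlier results of these data known, so its shares describe these genes and are no independent test. With 4-OI, 72 of its 85 tested genes were lower (84.7%, against 25.0% of all genes) and 6 higher, with a median log2 fold change of -0.74. With hemin 39 were lower (45.9%, against 7.74%) and 5 higher, with a median of -0.20. In Irg1KO 20 were lower and 20 higher (23.5% each, median -0.005), against 16.3% of all genes lower and 23.5% higher, so the share of higher genes was that of all genes. The genes with the smallest adjusted p with 4-OI were the chemokine genes Ccl7 (-4.37) and Ccl12 (-4.87), the DNA-sensor relative Ifi203 (-1.64), the GTPase Iigp1 (-2.78), the helicase Ddx60 (-1.86) and Fgl2 (-1.79). The 6 that were higher with 4-OI, named after their values were seen, were Cd274 (PD-L1, 1.22), Ccl5 (1.05), Lgals3 (0.70), N4bp1 (0.43), Ifi27 (0.26) and Pml (0.21). In Irg1KO the smallest adjusted p belonged to Ifi27l2a (-0.81), Iigp1 (-0.70), Ifitm3 (0.46) and Ly6e (-0.40). Of 10 tested genes known to prefer interferon gamma, 6 were lower with 4-OI (60.0%, against 25.0% of all genes tested). Among them were Gbp5 (-3.28), Iigp1 and Gbp6 (-2.22), which also belong to the 88 genes and so are counted in both lists. Cd74 (-0.05) was not called.

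Markers of macrophages and of other cells were read beside these changes. Of the 15 macrophage markers, 7 were lower with 4-OI (46.7%, against 25.0% of all genes tested), 2 of them at least 2-fold. A further 4 were higher (26.7%, against 25.4%), and the log2 fold changes ran from -1.63 to 1.14. Lyz2 had the highest count of these markers, up to 380437 in a library, so their sum depends mostly on the most abundant genes. With 4-OI the 8 detected neutrophil markers summed to 337 to 358 CPM against 81.9 to 92.2 CPM with vehicle, with 2 of 4 tested higher (Mmp8 and S100a8). Most of this sum was Mmp8, a collagenase gene, at 294, 318 and 326 CPM with 4-OI and 76.0, 85.6 and 77.0 CPM with vehicle, while Mpo, Elane, Ltf, Camp and Retnlg never exceeded 21 expected counts. The 6 endothelial markers summed to 9.59 to 11.0 CPM with 4-OI against 36.6 to 40.8 CPM, with 2 of 5 tested lower (Kdr and Cdh5). Kdr, the VEGF receptor gene, made up most of the vehicle sum, at 28.1, 30.9 and 26.8 CPM, and was at 4.60, 5.51 and 4.83 CPM with 4-OI. Endothelial markers summed to 17.6 to 19.8 CPM with hemin and 30.5 to 34.1 CPM in Irg1KO. Neutrophil markers summed to 93.4 to 102 CPM with hemin and 40.6 to 44.3 CPM in Irg1KO. Of 3 tested dendritic cell markers, Bst2 of the 44 genes among them, 2 were lower with 4-OI (66.7%, against 25.0% of all genes). In Irg1KO 2 of these 3 were higher (66.7%, against 23.5%). Markers of T, NK and B cells summed to 0.92 to 2.94 CPM over all 12 libraries. The part of these in the changes of the 44 genes was not tested.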

How the data were processed

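RNA of 12 libraries (4 groups of 3) had been sequenced by the submitters. The submitters' processing notes name the tools RSEM, Bowtie2, StringTie and HISAT2 and the genome builds mm39 and GRCm39; tool versions are not given in the sources used here. The deposited expected counts are estimated reads per gene, per the file headers, and 90.62 to 92.03% of them were whole. The deposited FPKM values, per the file headers, are the authors' length-scaled values, used here only to order genes by level and in alternatives; deposited lengths were only read. Absent genes were set to 0.

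Expected counts were rounded and fitted with edgeR 4.0.16 (R 4.3.3): filterByExpr, TMM factors, all 12 libraries in 1 quasi-likelihood fit, and Benjamini-Hochberg adjustment over 12148 genes. The SE is the absolute log2 fold change over the square root of F, and edgeR's biological coefficient of variation came to 4.71%. Library totals of 9405112 to 22390882 set the counting error of low genes. Chi-square per degree of freedom between replicates was 2.40 to 4.88, above the 1 of counting error. The script was tested on simulated data. Promoters came from RefSeq (GRCm38.p6), matched by symbol. Alternatives were RLE and upper-quartile factors, DESeq2 1.42.0, limma 3.58.1 on log2(FPKM + 1) or log2(FPKM + 0.1), other filters, only the groups compared, a replicate block, and leaving out each library. Python 3.11.15, pandas 2.3.3 and matplotlib 3.10.9 served for tables and plots.

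The 46 genes, their roles and the other lists were chosen with earlier results of these data known. Values in every library are given for up to 4 called genes of each role with the largest change with 4-OI, and for the 3 largest changes with hemin and, in each direction, in Irg1KO (Isg15 and Gbp2 among them). The most abundant gene of each role by FPKM is named. Values of Rsad2, Bst2, Igtp, Daxx, Parp9 and Parp14 were added after they were seen. From the other lists, up to 6 called genes in order of adjusted p are named, and Ifnar1, Ifnar2 and Irf3 always; 1 gene of these lists is not reported here.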

Additional observations from a re-analysis of the deposited data

How the results depend on the processing

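The main calls kept their direction. With 4-OI, 42 to 44 of the 44 genes were called lower and none higher under RLE or upper-quartile factors, DESeq2, limma on FPKM, other filters, a fit of only the 2 groups and each left-out library. With hemin the count ran from 32 to 36, and for 4-OI against hemin from 42 to 43. In Irg1KO the count of higher genes ran from 10 to 17, and 10 to 16 when 1 library was left out; the count of lower genes ran from 3 to 6. Same-numbered libraries did not deviate together (correlations -0.079 to 0.067), so no pairing by replicate number was seen in these values. The labels do not say whether equal numbers share a mouse or culture. With a replicate block 43 genes were lower with 4-OI, 36 with hemin and 43 for 4-OI against hemin, and in Irg1KO 17 were higher and 4 lower. On deposited FPKM the summed level was 41.4% of vehicle with 4-OI and 73.2% with hemin, against 48.9 and 77.2% by CPM. The ISRE core was in 62.9% of promoters and its stricter form in 37.1%. Signs changed only for values near 0 that were not called in the full fit; the cause was not tested. Ranges are over the fits that leave out 1 library. With hemin these were Gbp2 (-0.09 to 0.001) and Dtx3l (-0.035 to 0.009), and for 4-OI against hemin Igtp (-0.155 to 0.042). In Irg1KO, Adar went to -0.007 (RLE, DESeq2), -0.012 and -0.013 (FPKM), -0.008 (no filter) and -0.01 to 0.032. Bst2 went to -0.024 (RLE), -0.006 (upper quartile, and only the 2 groups), -0.023 (DESeq2), -0.013 (FPKM), -0.025 (no filter) and -0.044 to 0.051. Ifih1 went to -0.014 (RLE), -0.013 (DESeq2), -0.032 and -0.034 (FPKM), -0.015 (no filter) and -0.073 to 0.066. Ifi35 went to -0.012 (RLE), -0.014 (DESeq2), -0.01 (FPKM), -0.013 (no filter) and -0.097 to 0.106. Oas3 went to 0.003 (10 counts in 6 libraries) and -0.069 to 0.067. The ranges were -0.051 to 0.002 for Eif2ak2, -0.074 to 0.049 for Ifi47, -0.142 to 0.046 for Igtp, -0.075 to 0.024 for Dhx58, -0.192 to 0.012 for Ifi213 and -0.011 to 0.06 for Irf9. Depth limits the rare genes most, Cxcl10 and Ifit3b with 4-OI above all.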
